A study of Homo sapiens with 5 samples.

Results

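The zinc finger genes named ZNF on human chromosome 19 were examined in HL60 cells, an established promyelocytic leukaemia line. A gene was included when its identifier in the deposited count table matched a protein-coding chromosome 19 gene of GENCODE release 29 whose symbol was ZNF followed by a number. By this rule 237 of the 51055 genes of the table were included, 82 on the short arm and 155 on the long arm. The annotation holds 249 such genes, and the other 12 were not analysed here. The rule itself used no measured value, but the genes were chosen with earlier results of these data known.

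Most of these genes encode proteins with a KRAB domain followed by a tandem array of zinc fingers, each finger reading a few bases of DNA. The KRAB domain recruits the corepressor TRIM28, which brings the histone methyltransferase SETDB1, HP1 proteins and the NuRD complex to the bound site, and many family members are directed at transposable elements. The genes arose by repeated local duplication and lie in clusters on both arms of chromosome 19. In a leukaemia line they form a large family of weakly to moderately transcribed regulators, which makes their summed behaviour easier to measure than that of any 1 member.

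The study, whose title concerns myelodysplastic syndrome, had 5 HL60 libraries in 3 groups. UNT, 1 library, was untransduced. SCR, 2 libraries, carried a control lentiviral vector that the labels call scramble in one place and empty in another. ZIP, 2 libraries, carried a lentiviral miRZip hairpin made to produce the antisense of the microRNA miR-378a-3p. Both vectors carry a green fluorescent protein gene. Infection used 20 as the multiplicity, with polybrene at 8 µg/mL, and cells were kept in puromycin at 2 µg/mL from day 3 to day 8, so SCR differs from UNT by vector, infection and selection together. The level of the targeted microRNA was not analysed here. The labels do not say whether the 2 libraries of a group are separate cultures. A p-value here therefore reflects how far these libraries differ, possibly for technical reasons only, and tests against UNT take its 1 library to vary as SCR and ZIP do.

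The libraries held 24406580 to 30925067 counts. Levels are given in CPM, counts relative to the library size after TMM scaling, in which 3 counts, the limit set by a count of 0, correspond to 0.0980 to 0.125 CPM. The promyelocyte markers MPO, ELANE, PRTN3, AZU1, CTSG, CEBPE and SPI1 were all present, each at 76.4 CPM or more in every library. Of 14 markers of T and NK, B, erythroid, megakaryocytic, epithelial and fibroblast cells, MS4A1 and HBB had no count in any library, and NKG7, at 11.1 to 21.5 CPM, was the highest. Granule genes moved with the groups: MPO stood at 19034 CPM in UNT, 9974 and 9999 in SCR, and 17062 and 16596 in ZIP, and PRTN3, in the same order, at 3197, 821 and 834, and 3286 and 3184 CPM. AZU1 was at 521, then 221 and 216, then 318 and 304 CPM, CEBPE at 293, then 119 and 116, then 119 and 120 CPM, and SPI1 at 352, then 318 and 312, then 277 and 269 CPM, so these 3 did not return to the UNT level in ZIP. CTSG, at 205, then 76.5 and 76.4, then 346 and 342 CPM, stood above UNT in ZIP. So did ELANE, at 1378, then 487 and 456, then 1572 and 1504 CPM. The 7 promyelocyte markers, with MPO the largest in every library, summed to 24979 CPM in UNT, 12017 and 12010 in SCR, and 22980 and 22319 in ZIP, and the 14 others to 21.7, 28.7 and 27.1, and 20.5 and 20.5 CPM. In bulk RNA, fewer cells of a type and less RNA per cell cannot be told apart, and the part that the granule genes' shift has in the results below was not tested.

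The short-arm genes fell into 4 clusters of neighbours no more than 1 Mb apart, counted from the short-arm tip: 5 genes at 2.8 to 2.9 Mb, 15 at 7.1 to 9.8 Mb, 26 at 11.5 to 12.6 Mb and 35 at 19.7 to 24.1 Mb (GENCODE 29 coordinates on GRCh38). On the long arm 5 clusters held 5 genes at 34.7 to 35.0 Mb, 25 at 36.2 to 37.8 Mb, 20 at 43.5 to 45.1 Mb, 39 at 51.6 to 53.6 Mb and 56 at 55.5 to 58.5 Mb. The remaining 11 genes lay outside clusters. These copies resemble one another: a gene shared a median of 2.61% of its 50-base transcript stretches with another gene, 81 shared under 1%, 23 over 20% and 10 over 50%. Exons of 133 genes overlapped an exon of another annotated gene on either strand, 26 of them over more than 20% of their length. The sources used here do not give whether reads were counted by strand, so values of such genes are uncertain.

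In untransduced cells the family was broadly detectable at low levels. A level of 1 CPM or more was reached by 201 of the 237 genes in UNT, 196 and 198 in SCR, and 198 and 200 in ZIP, while 10 CPM or more was reached by 128 in UNT, 84 in each SCR library, and 108 and 109 in ZIP. The median gene stood at 11.4 CPM in UNT, 6.78 and 6.96 CPM in SCR, and 9.18 and 9.02 CPM in ZIP. No count was found in any library for 5 genes, and 24 genes, 18 of them on the short arm, were too low to test in any comparison, none of them above 0.261 CPM.

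Compared per kilobase of exon, the highest short-arm gene in UNT was ZNF266 at 15.7 CPM per kb, followed by ZNF317 at 14.1 and ZNF700 at 14.0, and then by ZNF100 at 8.33 and ZNF561 at 7.93 CPM per kb. On the long arm ZNF146, which consists of fingers without a KRAB domain, stood far above all others at 55.1 CPM per kb, ahead of ZNF581 at 18.7, ZNF787 at 17.3, ZNF428 at 13.4 and ZNF524 at 10.8 CPM per kb. With 1 UNT library the order of close neighbours, such as ZNF317 and ZNF700, has no replicate check. ZNF581 shares 23.4% of its exon length with an overlapping gene and ZNF428 27.6%, so their levels may include reads of a neighbour.

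Promoters of 5 genes are printed because these genes carry the patterns described below. ZNF528 and ZNF880 are neighbours in the fourth long-arm cluster that were low in SCR. ZNF100 is a short-arm gene at more than 50 CPM in UNT that was low in both vector groups. ZNF121 and ZNF460 were higher in ZIP than in UNT, where the family was lower, and rose with the family in ZIP against SCR. All 5 were chosen after their values were seen. Each sequence is the RefSeq promoter window of GRCh38.p14, from 250 bases before to 50 bases after the transcript start, read 5′ to 3′ on the gene's strand. Capitals mark matches on either strand to any of 4 motifs. The motif known as the GC box is GGGCGG. The core shared by sites of the ETS factor family is CGGAAG. The other motifs are the CCAAT box and the sequence TCTCGCGA. The windows lie at chr19:52397599-52397898 (ZNF528, plus strand), chr19:52369673-52369972 (ZNF880, plus), chr19:21767530-21767829 (ZNF100, minus), chr19:9584455-9584754 (ZNF121, minus) and chr19:57279732-57280031 (ZNF460, plus).
ZNF528: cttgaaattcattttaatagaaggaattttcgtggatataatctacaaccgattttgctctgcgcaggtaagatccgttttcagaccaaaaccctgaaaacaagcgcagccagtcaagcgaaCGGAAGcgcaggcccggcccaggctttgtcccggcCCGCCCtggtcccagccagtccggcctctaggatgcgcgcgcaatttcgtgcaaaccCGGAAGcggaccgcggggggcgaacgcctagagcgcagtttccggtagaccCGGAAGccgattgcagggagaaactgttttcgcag
ZNF880: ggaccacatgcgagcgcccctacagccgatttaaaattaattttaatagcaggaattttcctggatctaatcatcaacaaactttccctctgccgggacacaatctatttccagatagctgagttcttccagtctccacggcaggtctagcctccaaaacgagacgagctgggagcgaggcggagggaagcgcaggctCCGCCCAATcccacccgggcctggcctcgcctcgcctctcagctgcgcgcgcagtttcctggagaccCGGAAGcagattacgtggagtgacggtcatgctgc
ZNF100: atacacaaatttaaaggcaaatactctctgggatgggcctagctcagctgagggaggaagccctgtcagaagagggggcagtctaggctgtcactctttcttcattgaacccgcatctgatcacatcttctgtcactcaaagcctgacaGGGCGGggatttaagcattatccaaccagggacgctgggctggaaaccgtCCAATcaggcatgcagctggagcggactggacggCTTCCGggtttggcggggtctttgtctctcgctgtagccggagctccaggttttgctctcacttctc
ZNF121: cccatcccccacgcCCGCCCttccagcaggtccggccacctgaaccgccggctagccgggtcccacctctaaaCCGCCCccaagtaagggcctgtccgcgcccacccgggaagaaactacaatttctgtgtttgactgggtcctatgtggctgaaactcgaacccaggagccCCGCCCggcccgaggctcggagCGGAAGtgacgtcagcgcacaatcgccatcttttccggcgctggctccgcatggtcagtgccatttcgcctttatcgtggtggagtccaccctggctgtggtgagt
ZNF460: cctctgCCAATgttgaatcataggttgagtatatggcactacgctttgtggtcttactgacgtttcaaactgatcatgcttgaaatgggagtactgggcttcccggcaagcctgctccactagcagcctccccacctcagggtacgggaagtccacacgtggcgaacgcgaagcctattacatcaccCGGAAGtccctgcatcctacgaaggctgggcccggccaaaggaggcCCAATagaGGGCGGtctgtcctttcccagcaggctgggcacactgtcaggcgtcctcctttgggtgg

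CGGAAG was present in all 5 of these windows, with 3 matches in ZNF528 and 1 in each of the others. GGGCGG matched 3 times in ZNF121 and once in each of the other windows, CCAAT matched in ZNF880, ZNF100 and ZNF460, and TCTCGCGA matched in none. Over the 207 family genes with a RefSeq promoter, CGGAAG was found in 58.0%, beside 19.9% of all 27305 promoters of the same length and 42.6% of those of ZNF genes on other chromosomes. GGGCGG was found in 69.6% of family promoters and 44.6% of all promoters, and CCAAT in 54.6% and 35.7%. Promoters of ZNF genes on other chromosomes held GGGCGG in 59.4% and CCAAT in 41.4%. The arms differed in CCAAT, which was present in 82.2% of 73 short-arm and 39.6% of 134 long-arm windows. TCTCGCGA was rare, in 0.966% of family and 1.19% of all promoters. GGGCGG and CGGAAG can overlap by their shared bases, as can CCAAT and the reverse of GGGCGG. Family promoters held a median of 20 CpG pairs, against 14 in all promoters and 24 in those of ZNF genes on other chromosomes. A match is a description of letters, not a bound site.

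Cells with the control vector were first compared with untransduced cells. The chromosome 19 ZNF genes were lower in SCR almost throughout: their summed level was 3814 CPM in UNT and 2409 and 2407 CPM in SCR, a ratio of 0.631. Of 213 genes tested, 162 fell and 6 rose at an edgeR adjusted p under 0.05, where 32.2% of all 15832 genes fell and 32.7% rose. Among them 60 fell at least 2-fold, against a background of 5.86%. The median log2 fold change of the family was −0.76, that is 0.591-fold, against 0.02 for all genes tested.

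On the short arm the summed level was 985 CPM in UNT and 597 and 593 CPM in SCR, with 43 genes lower and 2 higher of 64 tested and a median log2 fold change of −0.66. ZNF100, in the fourth short-arm cluster, stood at 55.1 CPM in UNT and at 19.7 CPM in each SCR library. Its log2 fold change was −1.48 ± 0.06 (SE), with an adjusted p of 3.1e-15. ZNF14 was at 11.0 CPM in UNT and 3.79 and 2.88 in SCR, and ZNF823 at 5.93 and then 1.58 and 1.91 CPM, log2 fold changes of −1.72 ± 0.15 and −1.76 ± 0.20. The steepest fitted short-arm fall, in ZNF43, was from 1.29 CPM to 0.0789 and 0.195 CPM, and its SCR libraries lay at or near the level of 3 counts. ZNF20 fell as well, from 1.67 to 0.315 and 0.311 CPM, but 51.2% of its 50-base stretches are shared with another gene. That both SCR libraries lay below UNT was a condition for naming these genes, so it adds no evidence.

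On the long arm the sums were 2828 CPM in UNT and 1812 and 1814 CPM in SCR, with 119 genes lower and 4 higher of 149 tested and a median of −0.77. ZNF420, a KRAB protein known as Apak that binds p53, stood at 28.6 CPM in UNT and 7.49 and 7.55 in SCR, a log2 fold change of −1.93 ± 0.10 with an adjusted p of 1.4e-13. ZNF528 was at 37.2 CPM in UNT, and its SCR libraries were at 11.4 and 11.5 CPM, a change of −1.70 ± 0.08 with an adjusted p of 1.1e-14. ZNF547 fell from 6.93 to 1.81 and 2.18 CPM, a change of −1.79 ± 0.19. ZNF835, at 3.13 and then 0.315 and 0.545 CPM, and ZNF540, at 3.42 and then 0.355 and 0.934 CPM, also fell, by fitted values of 2.85 and 2.40 on the log2 scale. In both the 2 SCR libraries were far below UNT but differed from each other more than in ZNF420 or ZNF528.

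Of the 6 genes that rose in SCR, ZNF486 and ZNF714 lay in the fourth short-arm cluster, and the 4 on the long arm were ZNF221, ZNF611, ZNF460 and ZNF536, the last outside all clusters. ZNF486 stood at 0.626 CPM in UNT and 1.97 and 2.26 in SCR, a log2 fold change of 1.75 ± 0.37 with an adjusted p of 0.00024. ZNF460 stood at 3.80 CPM in UNT and 5.99 and 7.35 in SCR, a change of 0.81 ± 0.17 with an adjusted p of 0.00021. ZNF714 (0.46 ± 0.13), ZNF221 (1.13 ± 0.33) and ZNF611 (0.28 ± 0.12) passed the edgeR threshold but not that of DESeq2, whose adjusted p-values were 0.079, 0.11 and 0.26. ZNF221 rested on SCR library 2, at 3.89 CPM beside 1.97 in library 1, and without library 2 its adjusted p was 0.13. The sixth, ZNF536, a regulator of neuronal differentiation, had no count in UNT and 42 counts over the 2 SCR libraries, at least 6.57-fold higher when 3 counts in UNT are taken as the floor. The count of risers was 3 with DESeq2. ZNF536 was the only gene tested here with a group at 0, and setting it to this bound left the medians at −0.76 for the family and −0.77 for the long arm.

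All 9 clusters had lower sums in SCR than in UNT. The ratio of SCR to UNT was lowest in the first long-arm cluster, 0.518, and highest in the second, 0.686. Between them lay, on the short arm, the third cluster at 0.553, the first at 0.564, the fourth at 0.572 and the second at 0.649, and on the long arm the fourth at 0.591, the third at 0.640 and the fifth at 0.671. The 11 genes outside clusters had a ratio of 0.624. These ratios weigh the highest genes most. In the second long-arm cluster ZNF146 alone gave 229 of the 528 CPM in UNT, and 211 of 365 and 206 of 360 CPM in SCR. By median log2 fold change the second short-arm cluster was the least lowered, at −0.35, and the second long-arm cluster stood at −0.73. In the third long-arm cluster 18 of 20 tested genes fell and 1 rose, and in the fourth 31 of 37 fell and 1 rose. The difference between clusters was not tested.

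**Figure D1:**
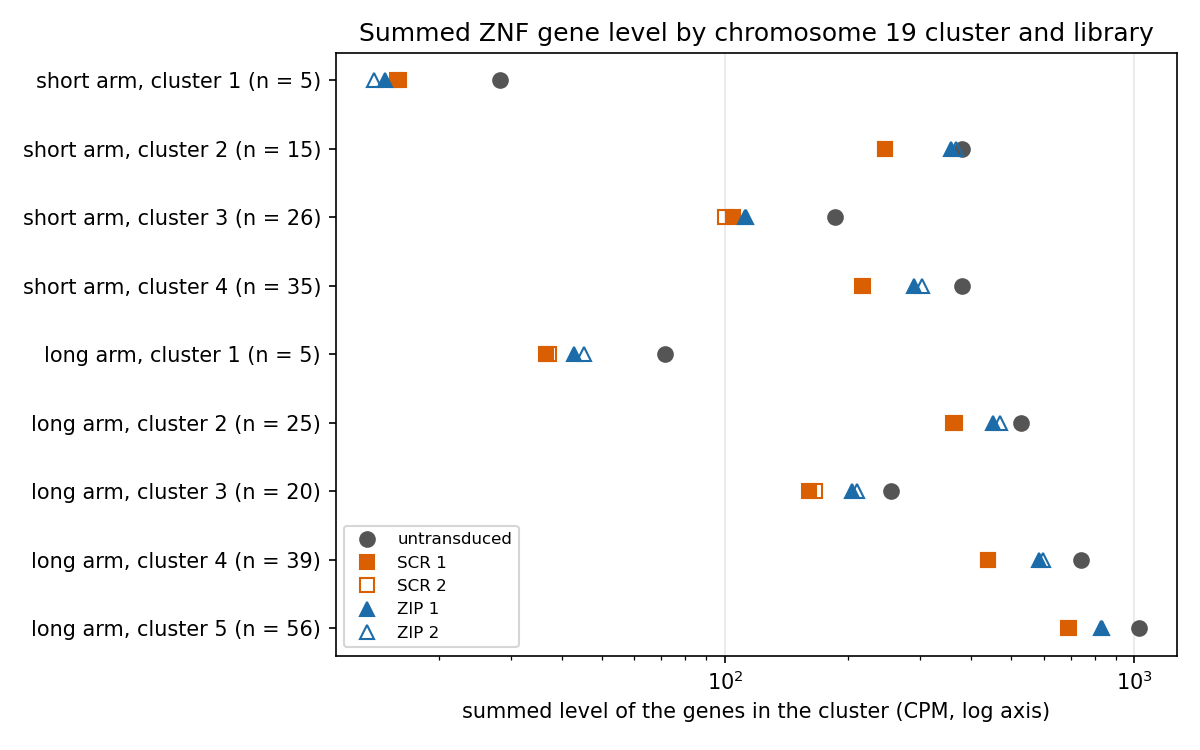
Summed level of the chromosome 19 ZNF genes of each cluster (CPM, log axis) in each of the 5 libraries, with clusters numbered from the short-arm tip and n the number of genes. In each of the 9 clusters the UNT point lies to the right of both SCR points, and the ZIP points lie between them in 8 clusters but to the left of SCR in the first short-arm cluster.

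ZIP cells were compared with the same UNT library, so the 2 comparisons with UNT share it. The family was lower in ZIP than in UNT, but by less than in SCR: the summed level was 3052 and 3108 CPM, a ratio of 0.808 to UNT. Of 213 genes 123 fell and 25 rose, where 29.7% of all genes fell and 28.5% rose, and the median log2 fold change was −0.40 against 0.00 for all genes tested. On the short arm 37 genes fell and 10 rose of 64, with a median of −0.37, and on the long arm 86 fell and 15 rose of 149, with a median of −0.41. With DESeq2 86 genes fell and 17 rose, 23 and 8 on the short arm and 63 and 9 on the long arm.

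Several genes lower in SCR than in UNT were also low in ZIP. ZNF547 stood at 1.57 and 2.15 CPM in ZIP against 6.93 in UNT, a log2 fold change of −1.92 ± 0.20 with an adjusted p of 1.5e-08. ZNF132, at 11.3 CPM in UNT, 3.83 and 4.79 in SCR and 4.84 and 3.60 in ZIP, changed by −1.40 ± 0.15, and ZNF44, at 14.3, then 6.19 and 4.75, then 5.36 and 6.25 CPM, by −1.31 ± 0.13. In these 3 genes the SCR and ZIP libraries overlapped. ZNF420 remained low at 9.41 and 11.5 CPM in ZIP, a change from UNT of −1.47 ± 0.10 with an adjusted p of 1.0e-11.

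Others were higher in ZIP than in UNT. ZNF121, on the short arm, stood at 24.3 CPM in UNT and 24.2 and 24.0 in SCR, and ZIP libraries at 55.4 and 55.8. The log2 fold change of ZIP from UNT was 1.19 ± 0.06 with an adjusted p of 2.9e-13, while that of SCR from UNT was −0.01 ± 0.07 with an adjusted p of 0.87. ZNF460, on the long arm, reached 11.3 CPM in each ZIP library from 3.80 in UNT, a change of 1.57 ± 0.15 with an adjusted p of 7.3e-09. ZNF66 was at 2.00 CPM in UNT, 2.64 and 2.14 in SCR, and 4.87 and 6.62 in ZIP, and ZNF714 at 6.26, then 8.64 and 8.56, then 13.0 and 11.9 CPM, rises over UNT of 1.50 ± 0.23 and 0.998 ± 0.13. ZNF573 and ZNF808 on the long arm rose over UNT by 1.19 ± 0.23 and 0.64 ± 0.10. The largest named rise over UNT on each arm was in a gene low in UNT. On the short arm ZNF486 went from 0.626 CPM in UNT to 1.96 and 2.90 in ZIP, a change of 1.92 ± 0.36. On the long arm ZNF221 went from 1.34 CPM in UNT to 4.70 and 5.25 in ZIP, a change of 1.89 ± 0.30. These genes were named on condition that both ZIP libraries lay above the UNT library, so that separation adds no evidence.

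**Figure D2:**
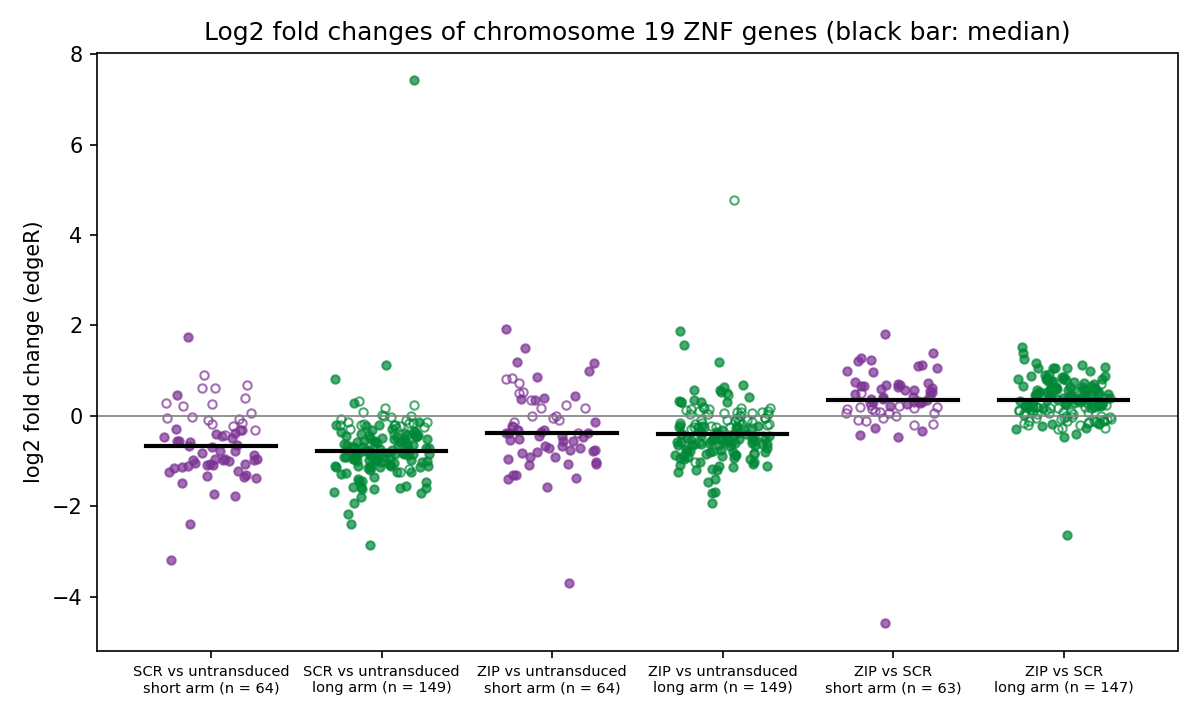
Log2 fold changes of the tested chromosome 19 ZNF genes by arm in the 3 comparisons, filled points with an edgeR adjusted p under 0.05, open points without, and the median as a black bar. Most points lie below 0 in SCR against UNT, fewer in ZIP against UNT, and most lie above 0 in ZIP against SCR. The top points of the long-arm strips against UNT are ZNF536, which had no count in UNT, so these fitted values depend on the prior count and are no bound.

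The antisense and control vectors, compared over the 4 transduced libraries, showed the family higher with the antisense vector. The sum was 2409 and 2407 CPM in SCR and 3052 and 3108 CPM in ZIP, a ratio of 1.28. Of 210 genes tested 127 rose and 13 fell in ZIP, where 32.2% of all 14643 genes rose and 33.2% fell. Among them 19 rose at least 2-fold, beside 3.13% of all genes. The median log2 fold change was 0.34, that is 1.27-fold, and −0.00 for all genes tested. DESeq2 gave 97 higher and 6 lower. Comparisons of ZIP and of UNT with SCR share the SCR libraries, so their opposite direction is not independent.

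On the short arm, at 597 and 593 CPM in SCR and 792 and 814 in ZIP, 37 genes rose and 5 fell of 63, with a median of 0.35. ZNF121 had the clearest rise, 1.21 ± 0.05 on the log2 scale with an adjusted p of 1.7e-14. ZNF737 stood at 18.0 CPM in UNT, 6.90 and 7.24 in SCR, and 15.6 and 15.1 in ZIP, a change from SCR of 1.12 ± 0.09 with an adjusted p of 7.8e-10. ZNF14 reached 6.67 and 7.32 CPM in ZIP, a change of 1.06 ± 0.14. ZNF66 rose by 1.24 ± 0.18 and ZNF433, at 0.670 and 0.817 CPM in SCR and 1.99 and 1.94 in ZIP, by 1.40 ± 0.25. That no ZIP library overlapped an SCR library was a condition for naming these 5 genes, so it adds no evidence.

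On the long arm, at 1812 and 1814 CPM in SCR and 2260 and 2294 in ZIP, 90 genes rose and 8 fell of 147, with a median of 0.34. The 3 steepest risers at 1 CPM or more, ZNF610, ZNF880 and ZNF528, are plus-strand genes that follow one another between 52336245 and 52418412 in the fourth long-arm cluster. ZNF610 stood at 8.85 CPM in UNT, 2.68 and 3.31 in SCR, and 7.87 and 7.78 in ZIP, a change from SCR of 1.39 ± 0.13 with an adjusted p of 1.5e-08. ZNF880 stood at 6.93, then 3.59 and 2.88, then 9.51 and 9.02 CPM, a change of 1.52 ± 0.13 with an adjusted p of 1.9e-09. ZNF528 stood at 28.3 and 26.6 CPM in ZIP, a change of 1.27 ± 0.07 with an adjusted p of 2.5e-12. ZNF256 was at 15.9 CPM in UNT, 8.87 and 9.14 in SCR, and 20.8 and 19.3 in ZIP, and ZNF551 at 4.38, then 3.35 and 3.31, then 6.86 and 7.28 CPM, changes of 1.16 ± 0.08 and 1.08 ± 0.13. Against UNT, ZNF610 did not pass the test, at −0.18 ± 0.13 with an adjusted p of 0.26, ZNF528 remained lower, at −0.43 ± 0.07, and ZNF880 was 0.42 ± 0.14 higher with an edgeR adjusted p of 0.011 that was 0.18 with DESeq2.

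Of the 13 genes lower in ZIP than in SCR, 11 are named here. ZNF627 stood at 17.9 CPM in UNT, 8.99 and 7.67 in SCR, and 6.34 and 5.67 in ZIP, a change from SCR of −0.46 ± 0.12 with an adjusted p of 0.0017. ZNF175, known as OTK18 and found in macrophages infected with HIV, stood at 19.4, then 12.7 and 13.6, then 9.80 and 9.14 CPM, a change of −0.47 ± 0.09 with an adjusted p of 9.6e-05. ZNF430 changed by −0.33 ± 0.08 and ZNF524 by −0.40 ± 0.08. ZNF77 (−0.42 ± 0.12), ZNF254 (−0.27 ± 0.11), ZNF418 (−0.29 ± 0.11), ZNF580 (−0.27 ± 0.08) and ZNF444 (−0.22 ± 0.07) passed the edgeR threshold but had DESeq2 adjusted p-values of 0.064 to 0.23. ZNF358 and ZNF536, named after their values were seen, were below 1 CPM. ZNF358 had 28 counts in SCR and 1 in ZIP, 30.0-fold lower (95% Clopper-Pearson interval 4.97 to 1228). ZNF536 had 42 and 7, 6.44-fold lower (2.87 to 17.0). Both intervals cover counting error only. ZNF358 shares 34.4% of its exon length with an overlapping gene and 18.4% of its 50-base stretches, so its counts may include reads of another gene.

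By cluster, ZIP against SCR gave the highest ratio of summed levels in the second short-arm cluster, 1.47, which holds ZNF121, and the fourth, 1.36, followed by the fourth long-arm cluster at 1.35. The second long-arm cluster had 19 higher and none lower of 24 genes, with a median log2 fold change of 0.52, the third 13 higher and none lower of 20, with a median of 0.38, and the fifth 29 higher and 4 lower of 54, with a median of 0.22. The first short-arm cluster differed in direction, with no gene higher and 1 lower of 4, a median of −0.03 and a ratio of 0.901. With 4 tested genes this difference between clusters was not tested.

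**Figure D3:**
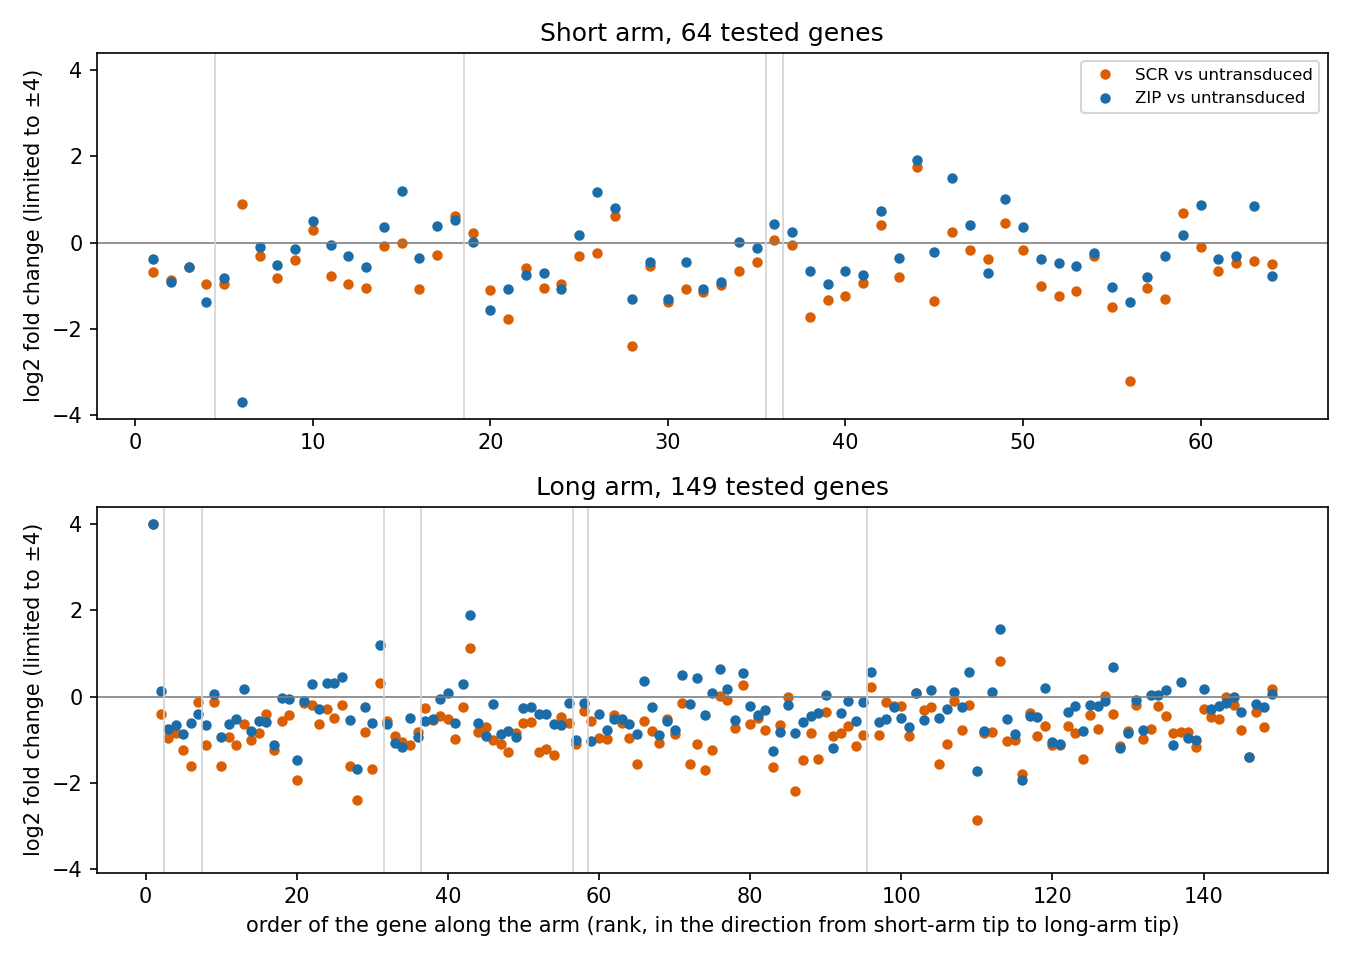
Log2 fold change of each tested chromosome 19 ZNF gene against its rank along each arm, in the direction from the short-arm tip to the long-arm tip, for SCR and for ZIP against the shared UNT library. Vertical grey lines mark cluster borders and values are drawn within −4 to 4, a limit that ZNF536, the first long-arm gene, exceeds. Most points lie below 0 along both arms, with single genes above 0 among them, such as ZNF121 in ZIP.

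Neighbouring genes were about as unlike as any pair from the same cluster. In ZIP against SCR the median absolute difference in log2 fold change was 0.36 over 191 neighbouring pairs and 0.39 over all 3086 pairs within clusters. It was 0.53 against 0.55 in SCR against UNT, and 0.59 against 0.55 in ZIP against UNT. Medians of genes with and without a promoter motif were also compared. In SCR against UNT the median was −0.75 for 111 genes with CGGAAG and −0.71 for 78 without, −0.69 for 98 with CCAAT and −0.77 for 91 without, and −0.69 for 127 with GGGCGG and −0.79 for 62 without. The 2 genes with TCTCGCGA had a median of −0.28, against −0.75 for the 187 without. In ZIP against SCR it was 0.34 with and 0.32 without CGGAAG, 0.31 with and 0.39 without CCAAT, 0.33 with and 0.37 without GGGCGG, and 0.31 with and 0.34 without TCTCGCGA. These are descriptions without a test.

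**Figure D4:**
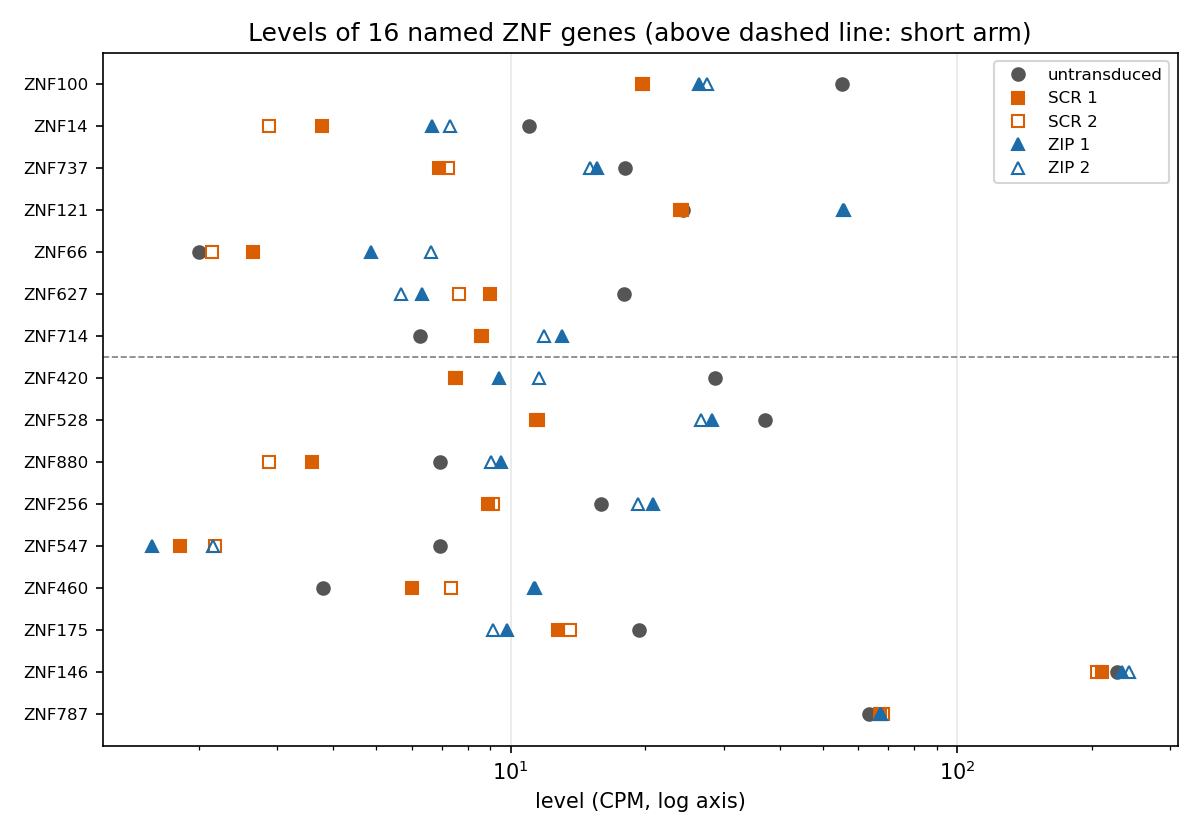
Level (CPM, log axis) of 16 chromosome 19 ZNF genes in each of the 5 libraries, short-arm genes above the dashed line. ZNF528 and ZNF880 are low in both SCR libraries and higher in UNT and ZIP, ZNF420 and ZNF100 are high in UNT alone, and ZNF121 and ZNF460 are highest in ZIP.

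Members with a described role followed the family in different degrees, and not all were called lower in SCR. ZNF85 passed no threshold there, at −0.17 ± 0.14 against UNT with an edgeR adjusted p of 0.29. In ZIP it exceeded UNT by 0.39 ± 0.13, adjusted p 0.012. ZNF121, given above, likewise was not called in SCR and was higher than UNT in ZIP. ZNF568 changed by −0.42 ± 0.14 in SCR but −0.05 ± 0.13 in ZIP against UNT. For ZNF649 these changes were −0.98 ± 0.09 and −0.77 ± 0.08. ZNF91, which represses SVA retrotransposons in the human genome, stood at 25.05 CPM in UNT, 16.4 and 15.4 in SCR, and 19.5 and 18.9 in ZIP. It changed by −0.66 ± 0.08 in SCR and −0.38 ± 0.08 in ZIP against UNT, and ZIP stood above SCR by 0.28 ± 0.07, adjusted p 0.0016. ZNF93, which represses L1 elements, stood at 7.39, then 4.06 and 3.62, then 4.08 and 4.76 CPM. It fell in both vector groups, by 0.94 and 0.75 on the log2 scale, and ZIP against SCR, at 0.19 ± 0.15, had an adjusted p of 0.26. ZNF274, which directs SETDB1 to the 3′ ends of zinc finger genes, stood at 64.5, then 46.3 and 47.0, then 53.8 and 52.0 CPM, changes of −0.47 ± 0.05 in SCR and −0.28 ± 0.05 in ZIP against UNT.

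ZNF331, an imprinted gene, was at 54.6 CPM in UNT, 29.4 and 29.1 in SCR, and 50.5 and 49.8 in ZIP. It fell by 0.90 on the log2 scale in SCR against UNT, with an adjusted p of 3.6e-12, and ZIP exceeded SCR by 0.78 ± 0.05, adjusted p 1.5e-11, while ZIP against UNT was −0.12 ± 0.05 with an adjusted p of 0.057. ZNF382, a KRAB repressor often methylated in tumours, was at 10.6, then 5.92 and 7.63, then 11.4 and 12.5 CPM, with a change from SCR to ZIP of 0.81 ± 0.11. ZNF350, a BRCA1 partner known as ZBRK1, was at 23.3, then 14.5 and 15.8, then 16.6 and 15.5 CPM, low in both vector groups. ZNF304, a KRAB protein described in silencing of tumour suppressor loci, was likewise at 24.1, then 11.9 and 12.3, then 13.9 and 12.3 CPM. ZNF675, an inhibitor of TRAF6 signalling, fell from 19.2 to 13.7 and 14.0 CPM in SCR and stood at 14.7 and 16.1 CPM in ZIP.

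Among the genes highest per length, ZNF146 and ZNF787 differed little between groups. ZNF146 stood at 229 CPM in UNT, 211 and 206 in SCR, and 234 and 242 in ZIP, a fall of 0.13 on the log2 scale in SCR with an adjusted p of 0.0023, which was −0.02 with an adjusted p of 0.59 when libraries were scaled by their totals. ZIP exceeded SCR by 0.19 ± 0.03 in ZNF146, adjusted p 5.9e-06, a call that held with library totals. ZNF787 stood at 63.4, then 67.2 and 68.2, then 67.3 and 67.6 CPM, and passed no test with TMM scaling. With library totals it passed both comparisons with UNT, at 0.20 in SCR and 0.14 in ZIP. ZNF266 was at 85.1, then 42.4 and 40.1, then 55.9 and 59.8 CPM, and ZNF561 at 51.3, then 24.3 and 24.3, then 39.4 and 40.0 CPM, both lower in SCR than in UNT by 1.04 ± 0.05 and 1.08 ± 0.06 on the log2 scale and higher in ZIP than in SCR by 0.49 ± 0.05 and 0.71 ± 0.05. ZNF317 changed by −0.39 ± 0.05 in SCR against UNT and by 0.25 ± 0.04 in ZIP against SCR. ZNF700 fell from 46.5 CPM in UNT to 26.1 and 21.6 in SCR and stood at 21.9 and 22.4 CPM in ZIP.

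The family's median was below 0 in SCR against UNT at each level of expression. In genes with a mean below 5 CPM, of 5 to 20 CPM and of 20 CPM or more, the family's median log2 fold change in SCR against UNT was −0.81, −0.78 and −0.71, beside 0.27, 0.00 and −0.06 for all genes of those levels. In ZIP against SCR the medians were 0.28, 0.37 and 0.34, beside −0.15, −0.07 and 0.06. Leaving out the genes that share over 20% of their 50-base stretches, an alternative chosen after seeing the data, moved the short-arm median in SCR against UNT to −0.56.

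ZNF genes of other chromosomes and the other protein-coding genes of chromosome 19 had medians nearer to 0 than the family in each comparison. The 257 protein-coding ZNF genes of other chromosomes summed to 6416 CPM in UNT, 5846 and 5854 in SCR, and 6332 and 6359 in ZIP. In SCR against UNT 112 fell and 36 rose of 215 tested, with a median of −0.25, and in ZIP against SCR 90 rose and 50 fell of 214, with a median of 0.10. The other protein-coding genes of chromosome 19, 748 tested, had 328 lower and 225 higher in SCR against UNT, with a median of −0.09, and 254 higher and 272 lower of 724 in ZIP against SCR, with a median of −0.02. The related ZFP, ZSCAN, ZIM and ZIK genes of chromosome 19 had 6 lower and 1 higher of 9 in SCR against UNT, with a median of −0.77 close to the family's, 6 lower and 1 higher in ZIP against UNT, with a median of −0.79, and 4 higher and 3 lower in ZIP against SCR, with a median of 0.11. Their summed level, over 14 genes, ran otherwise, at 132 CPM in UNT, 140 and 141 in SCR, and 85.2 and 85.1 in ZIP. The differences between these lists were not tested.

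The silencing partners of KRAB zinc finger proteins had medians above 0 in all 3 comparisons, opposite in sign to the family's against UNT and of the same sign in ZIP against SCR. Of 40 listed partners 39 were found, all tested. In SCR against UNT, with a median of 0.09, 14 fell and 19 rose, 35.9% and 48.7%, beside 32.2% and 32.7% of all genes. In ZIP against UNT, with a median of 0.14, 13 fell and 20 rose, 33.3% and 51.3%, beside 29.7% and 28.5%. In ZIP against SCR, with a median of 0.10, 10 fell and 23 rose, 25.6% and 59.0%, beside 33.2% and 32.2%. The shares of partners that fell against UNT were thus near those of all genes. TRIM28, the KRAB corepressor and itself a chromosome 19 gene, stood at 646 CPM in UNT, 489 and 488 in SCR, and 715 and 705 in ZIP. It changed by −0.40 ± 0.03 in SCR against UNT with an adjusted p of 5.2e-12, and ZIP exceeded SCR by 0.54 ± 0.02, adjusted p 3.0e-14. GATAD2A, a NuRD subunit, had the same order, at 156, then 117 and 116, then 171 and 173 CPM, with a change from SCR to ZIP of 0.56 ± 0.03.

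Other silencing genes ran the opposite way in SCR. CHD3, a NuRD remodeller, rose from 85.8 CPM in UNT to 179 in each SCR library and stood at 133 and 136 in ZIP, and its paralogue CHD4 rose from 330 to 525 and 531 CPM, with 525 and 530 in ZIP. Their changes in SCR against UNT were 1.06 ± 0.04 and 0.68 ± 0.03. SETDB1, the methyltransferase recruited by TRIM28, stood at 63.7, then 75.9 and 82.5, then 76.5 and 72.3 CPM, and DNMT1, the maintenance DNA methyltransferase, at 293, then 408 and 408, then 442 and 432 CPM, both higher than UNT in either vector group. CBX5, which encodes HP1 alpha, stood at 132, then 150 and 149, then 207 and 206 CPM, rising in SCR and further in ZIP, by 0.46 ± 0.03 between them.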

How the data were processed

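Whole read counts per gene for 5 HL60 libraries were taken from the table the authors deposited, with no normalization. Per the submitters' processing notes, Bowtie2 and featureCounts were used, while the series' design text names a small RNA library kit, TopHat and HTSeq; the sources used here do not give which of them made the counts, nor the build, annotation or strand setting. Of 51055 identifiers 44305 matched GENCODE 29. The members and lists were chosen with earlier results of these data known.

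Low genes were removed by filterByExpr of edgeR 4.0.16, with a minimum count of 10 and total of 15, and TMM-scaled counts were tested across all genes with its quasi-likelihood test, with Benjamini-Hochberg adjustment at 0.05. ZIP was compared with SCR on 4 libraries, and both with UNT on all 5, leaving 2 residual degrees of freedom each. The fitting script was tested on simulated data. Arms were divided at the widest gap between protein-coding genes, 24.1 to 29.2 Mb. Named genes were up to 5 per arm and direction with the largest change at an adjusted p under 0.05 and 1 CPM or more. For these, the libraries of the 2 groups also had to lie fully apart. The 5 highest per kilobase on each arm and genes of described role were named as well. Alternatives were other scaling, DESeq2 1.42.0, other filters, each SCR or ZIP library left out, and a replicate block. Analyses used R 4.3.3 and Python 3.11.15.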

Additional observations from a re-analysis of the deposited data

How the results depend on the processing

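The direction of the medians of the family and of both arms held in each of the 3 comparisons under all scalings, filters, DESeq2 and each library left out. In SCR against UNT, scaling by library totals gave a median over all genes of 0.13 instead of 0.02, and medians of −0.65 for the family, −0.55 for the short arm and −0.66 for the long arm, and leaving out genes that share over 20% of their 50-base stretches gave −0.56 for the short arm. DESeq2 called fewer genes than edgeR. In ZIP against SCR it called 97 higher and 6 lower, the latter 3 on each arm. In SCR against UNT it called 140 lower and 3 higher, 38 and 1 on the short arm and 102 and 2 on the long arm. In ZIP against UNT it called 86 lower and 17 higher, 23 and 8 on the short arm and 63 and 9 on the long arm. The shares of all genes that DESeq2 called are not given here. With a library left out, 3 to 5 short-arm genes were called lower in ZIP against SCR (3 without SCR library 1), the short-arm median was 0.33 to 0.44, and 2 to 5 long-arm genes were called higher in SCR against UNT (2 without SCR library 2). The causes were not tested.

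Over 57 named genes 1544 alternative values kept direction and side of the threshold, 72 lost the call, 11 gained one and 16 changed sign, the last all in genes without a call. With a library left out, ZIP against SCR ranged from −0.24 to 0.0377 for ZNF700, −0.26 to 0.18 for ZNF132, −0.10 to 0.28 for ZNF44, −0.34 to 0.11 for ZNF547, −0.0111 to 0.0043 for ZNF787 and −0.0989 to 0.45 for ZNF486. SCR against UNT likewise ranged from −0.0206 to 0.0012 for ZNF121, −0.0220 to 0.61 for ZNF573 and −0.00647 to 0.0545 for ZNF808, and ZIP against UNT from −0.0859 to 0.0093 for ZNF568. With library totals ZNF121 was at 0.0950 in SCR against UNT and ZNF568 at 0.0038 in ZIP against UNT.

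SCR and ZIP libraries share the numbers 1 and 2. The difference between the 2 SCR libraries and that between the 2 ZIP libraries correlated with r = 0.0319 over 15832 genes. No shared effect of the numbers was thus visible, which cannot show whether libraries of the same number were handled together. With the replicate block 128 genes were higher and 13 lower, and ZNF540 gained a call at 0.77. Clusters numbered 10 with a 500 kb limit instead of 9. The comparison without near-identical proteins was not run.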
